A study of Homo sapiens with 115 samples.

Results

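The genes described here are 9 members of the MHC class I antigen presentation pathway: the heavy chains HLA-B, HLA-C, HLA-E and HLA-F, the light chain B2M, the peptide transporter subunits TAP1 and TAP2, and the immunoproteasome subunits PSMB8 and PSMB9. They were taken by name from the 43386 rows of a gene count table, 1 row per member, by a rule that uses no measured value. SMART RNA-seq, a full-length single-cell protocol, had been applied to 43 p53-/- and 72 p53+/+ single cells of HCT116, a mismatch-repair deficient human colorectal cancer cell line, as cells passed through and left the radiation-tolerant persister (RTP) state. Lines are given as in the sample labels; the numbers of cells per line differ from those the study states, so the line of a few cells is uncertain. Each cell was aspirated singly under a microscope. The study describes both as lines obtained by homologous recombination, and with 1 line of each genotype a value specific to a genotype cannot be told apart from one specific to a clone.

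Unirradiated cells [N] were collected on day 0 (7 p53-/- and 6 p53+/+ cells). After a single dose of 8 Gy, pre-budding RTP cells [P] were collected on day 7 (11 p53-/- and 6 p53+/+ cells), and budding RTP cells [B] on day 10 (8 p53-/- and 28 p53+/+ cells). Newly budded progeny cells [S] were also collected on day 10 (9 p53-/- and 21 p53+/+ cells), and repopulated cells [R] on day 30 (8 p53-/- and 11 p53+/+ cells). The sample labels give the 8 Gy treatment for the [N] cells too, whereas the methods of the study describe them as untreated; they are called unirradiated here. Total counts ranged from 4056329 to 100173192 per cell. The summed level of 5 epithelial markers ranged from 5263 to 15814 CPM (the usual scaling of counts to the total count of the same cells) over the stages of both lines. That of 5 leukocyte markers ranged from 6.22 to 40.7 CPM, with CD3E at 0. Counts from mitochondrial and ribosomal RNA moved with the stages: their median share was 1.17% and 1.10% in [N] cells of the p53-/- and p53+/+ lines and between 1.93% and 6.08% at the other stages of both lines. With the 44 rows of such RNA left out of the total, the HLA-B sum of p53-/- cells was 85.1 CPM in place of 78.3 CPM at [B] and 16.2 CPM in place of 15.9 CPM at [N], and the 60 group medians per cell recomputed this way (6 members in 10 groups) moved by less than 1 SD between cells.

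MHC class I molecules show peptides from inside the cell to CD8+ T cells, and their absence is sensed by natural killer cells. Proteasomes cut proteins into peptides, and after interferon exposure PSMB8 and PSMB9 replace constitutive catalytic subunits; the TAP1 and TAP2 transporter then carries the peptides into the endoplasmic reticulum, where a heavy chain joined to B2M is loaded and sent to the surface. HLA-B and HLA-C are classical, highly polymorphic heavy chains, HLA-E presents signal peptides of other class I chains to NKG2A receptors, and HLA-F is a rarely expressed non-classical chain. Transcription of these genes is raised by interferons and by the transactivator NLRC5, and loss of the pathway is a known route of immune escape in mismatch-repair deficient colorectal cancer.

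The sequences just before the start sites of HLA-B, HLA-C and B2M, on which the results turn, and of TAP2, the measured part of the transporter, are given because these genes share interferon and enhanceosome motifs that can be seen in them. Each run holds the 250 bases before the RefSeq start site (GRCh38.p14), printed 5' to 3' on the strand of the gene, and capitals mark motif matches on either strand.
HLA-B (chr6:31357180-31357429, minus strand): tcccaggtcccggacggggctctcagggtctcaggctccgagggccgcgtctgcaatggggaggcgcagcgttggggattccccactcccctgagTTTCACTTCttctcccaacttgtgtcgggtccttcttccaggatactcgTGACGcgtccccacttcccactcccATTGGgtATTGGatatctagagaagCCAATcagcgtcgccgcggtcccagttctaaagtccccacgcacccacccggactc
HLA-C (chr6:31272093-31272342, minus strand): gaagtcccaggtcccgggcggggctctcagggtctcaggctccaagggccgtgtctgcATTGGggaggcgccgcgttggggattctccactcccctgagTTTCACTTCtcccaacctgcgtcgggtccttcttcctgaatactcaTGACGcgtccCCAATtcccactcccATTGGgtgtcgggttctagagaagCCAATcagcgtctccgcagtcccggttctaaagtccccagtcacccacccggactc
B2M (chr15:44711267-44711516, plus strand): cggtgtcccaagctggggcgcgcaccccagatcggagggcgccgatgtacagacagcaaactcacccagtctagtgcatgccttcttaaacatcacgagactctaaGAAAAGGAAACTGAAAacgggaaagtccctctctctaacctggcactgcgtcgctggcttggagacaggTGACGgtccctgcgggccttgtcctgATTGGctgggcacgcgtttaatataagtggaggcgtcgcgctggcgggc
TAP2 (chr6:32838740-32838989, minus strand): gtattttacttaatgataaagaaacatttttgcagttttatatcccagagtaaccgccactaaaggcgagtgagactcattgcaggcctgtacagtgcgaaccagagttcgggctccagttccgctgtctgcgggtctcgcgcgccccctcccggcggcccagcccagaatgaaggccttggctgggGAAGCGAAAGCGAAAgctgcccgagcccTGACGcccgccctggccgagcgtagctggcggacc

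The motifs searched were GAAANNGAAA, the core of interferon-stimulated response elements, the shorter form GAANNGAAA, TGACG, the core of ATF/CREB sites, and CCAAT, the box bound by NF-Y. GAAANNGAAA was present in 3.02% of 35116 RefSeq promoter windows of the same length, GAANNGAAA in 6.56%, TGACG in 21.2% and CCAAT in 32.0%. HLA-B held GAANNGAAA on the other strand at bases -155 to -147 from the start site, and HLA-C held it at -151 to -143. B2M held GAAANNGAAA at -144 to -135 and again, overlapping, at -138 to -129. In TAP2 a GAANNGAAA match at -63 to -55 overlapped a GAAANNGAAA match at -58 to -49. TGACG stood as printed at -106 to -102 in HLA-B, -105 to -101 in HLA-C, -75 to -71 in B2M and -35 to -31 in TAP2. CCAAT was matched 3 times in HLA-B, 4 times in HLA-C and once in B2M. Windows were found for 8 of the 9 members; HLA-E had none. These matches describe letters, and binding was not measured.

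How the table lists these genes bears on every value. Each of the members on chromosome 6 has 6 to 8 rows, one with the plain gene name and the others with an added number, and B2M on chromosome 15 has 2 rows. In the GENCODE annotation of GRCh38 the chromosome 6 members lie between position 29722775 (HLA-F) and 32859851 (PSMB9), and B2M spans 44711358 to 44718851. What the added numbers stand for is not given in the sources used here. The main values below are of the row with the plain name, and values of all rows of a name summed (summed entries) are given beside them where they differ. Counts of near-identical rows can be divided among them by the mapping of reads, so the level of any single row is uncertain. HLA-B had 216917 counts in the named row and 1661280 in the summed entries over all cells, HLA-C had 235569 and 1559850, and B2M had 6006271 and 8943391.

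The rows named TAP1, PSMB8 and PSMB9 were listed at 0 in all cells. A gene used by every cell, TUBB, was also listed at 0 in the row of that name but had 121567 counts in the row TUBB_2. A 0 in a named row alone is therefore not read as absence of the transcripts. All 8 entries of PSMB8 were at 0. The entries of TAP1 held 84 counts in 11 cells. PSMB9 had 26316 counts in 98 cells, in 3 of its 8 entries. The annotated span of PSMB9 shares 8608 bases with TAP1 and 544 bases with PSMB8 on the opposite strand, and the library kit does not mark strand, so the PSMB9 counts cannot be assigned to PSMB9 alone. The tests therefore covered 6 of the 9 members in the named rows (HLA-B, HLA-C, HLA-E, HLA-F, B2M and TAP2), and PSMB9 in the summed entries only.

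The unit of comparison was the line at a stage, because single cells of a line share their culture. For each of the 10 combinations of stage and line the counts of the cells were added up, and edgeR's quasi-likelihood test set the stages against each other with n = 2 lines per stage. In this main fit the stage comparisons had no term for the line, so the difference between the lines counted in the spread. Its p-values measure the spread between these sums, and 19894 rows of the table were tested. With the threshold at an adjusted p of 0.05 (Benjamini-Hochberg), edgeR without a term for the line called 0 of the 6 members in any of the 7 stage comparisons. It also called 0 between the lines. Its calls made up 0.0201% of all genes for [P] versus [N], 0.658% for [B] versus [N] and 0.0704% for [S] versus [N]. They made up 0% for [R] versus [N], [B] versus [P] and [S] versus [B], 0.0201% for [R] versus [S] and 0.206% for p53-/- versus p53+/+. With a term for the cell line, which pairs the stages, edgeR called HLA-C in [B] versus [N] (adjusted p = 0.0199), beside 3.4% of all genes.

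An unadjusted p under 0.05 was found by edgeR for 2 members in [P] versus [N] (11.9% of all genes), 3 members for [B] (18.5%), 2 members for [S] (13.3%) and 1 member for [R] (8.6%), each against [N]. No member had one in [B] versus [P] (5.18% of all genes) or [S] versus [B] (4.19%), but 1 member did for [R] versus [S] (15.1%) and 1 for the lines (13.9%). DESeq2, fitted to the same sums, called HLA-B for [P] (4.02% of all genes called), HLA-B and HLA-C for [B] (10.7%), HLA-C for [S] (4.83%) and 0 members for [R] (2.02%), each against [N]. It called HLA-E between the lines (8.22%) and 0 members in [B] versus [P] (0.643%), [S] versus [B] (0.256%) and [R] versus [S] (7%).

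HLA-B had the widest range among the members with many counts. In p53-/- cells its sum per stage was 15.9 CPM at [N], 141 CPM at [P], 78.3 CPM at [B], 35.5 CPM at [S] and 26.1 CPM at [R]. In p53+/+ cells it was 11.5, 35.6, 51.1, 53.5 and 12.9 CPM in the same order of stages. Both lines thus had their lowest sum at [N], and the highest sum was that of [P] in p53-/- cells and of [S] in p53+/+ cells.

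Single cells of the p53-/- line had a lowest, median and highest HLA-B level of 6.66, 17.6 and 27.96 CPM at [N], 16.9, 65.2 and 611 CPM at [P], and 28.4, 73.4 and 121 CPM at [B]. The same values were 14.02, 30.7 and 109 CPM at [S] and 14.6, 23.5 and 54.8 CPM at [R]. All 8 budding p53-/- cells, 9 of 11 [P] cells, 5 of 9 [S] cells and 3 of 8 [R] cells stood above the highest [N] cell of their line. In p53+/+ cells the lowest, median and highest levels were 9.42, 13.3 and 15.9 CPM at [N], 25.7, 33.6 and 51.0 CPM at [P] and 20.5, 49.2 and 94.7 CPM at [B]. They were 7.91, 40.5 and 152 CPM at [S] and 7.37, 12.5 and 25.8 CPM at [R]. All 6 [P] cells and all 28 [B] cells of the p53+/+ line were above the highest [N] cell, as were 18 of 21 [S] cells and 3 of 11 [R] cells, so that only [S] and [R] overlapped with [N] in this line. The share of all genes with such separation is not given here. These counts, and those of other members below, thus do not show that a member is unusual.

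**Figure D1:**
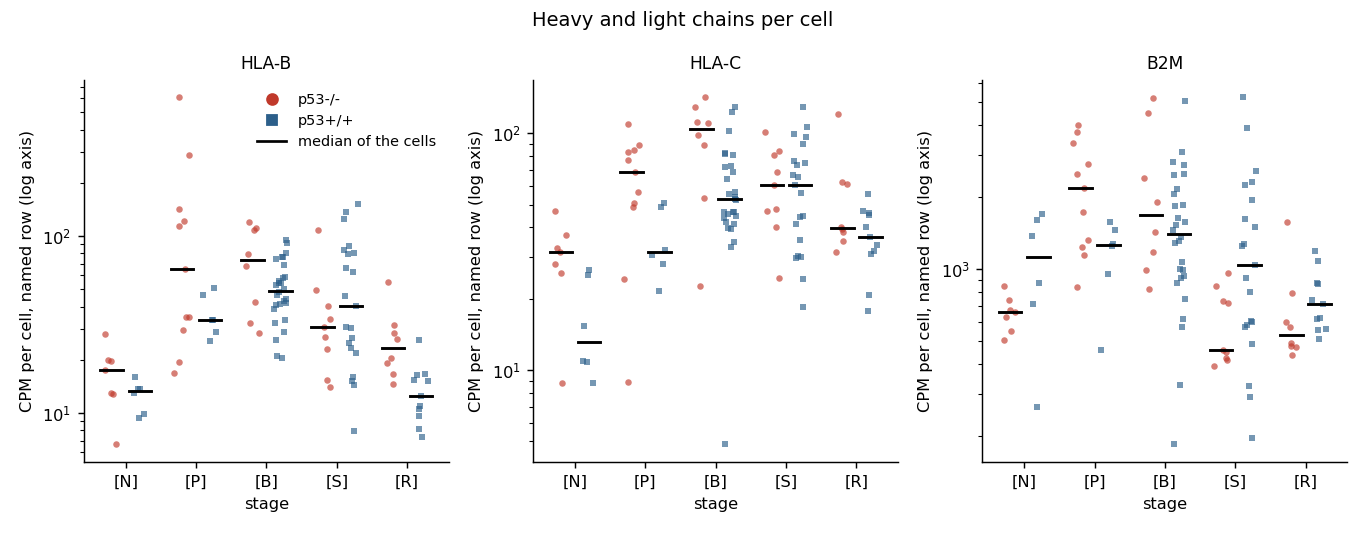
CPM per cell on a log axis for the named rows of HLA-B, HLA-C and B2M at the 5 stages; red circles are p53-/- cells, blue squares are p53+/+ cells, and black lines are medians of the cells. All 8 p53-/- and all 28 p53+/+ [B] cells lie above the highest [N] cell of their line for HLA-B, and one [P] p53-/- cell reaches 611 CPM. The share of all genes that separate in this way is not given here.

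Against [N], the log2 fold change of HLA-B was 2.53 at [P] (SE 0.61, p = 0.0019, adjusted p = 0.284, edgeR), 2.12 at [B] (SE 0.60, p = 0.0053, adjusted p = 0.112) and 1.75 at [S] (SE 0.59, p = 0.014, adjusted p = 0.288), and it was 0.35 at [R] (SE 0.57). None of these passed the adjusted threshold by edgeR; DESeq2 gave adjusted p = 0.00197 for [P] and 0.0061 for [B]. With summed entries the log2 fold changes were 1.99 at [P], 2.03 at [B] and 1.46 at [S]. All 6 entries of HLA-B tested alone were higher than at [N] at [P], [B], [S] and [R], by 1.53 to 2.34 on the log2 scale at [B].

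A single cell weighed heavily on HLA-B in p53-/- [P] cells. It supplied 63.3% of the HLA-B counts of that sum, and the next cell had 287 CPM. The same cell had the highest mean level of interferon effector genes in its group. Without it and the [B] p53-/- cell of highest effector level, the [P] p53-/- sum was 60.3 CPM, the log2 fold change of [P] versus [N] was 1.70 (adjusted p = 0.354), and that of [B] versus [N] was 2.08 (adjusted p = 0.078). With the whole [P] p53-/- sum left out, [P] versus [N] had a log2 fold change of 1.30 (adjusted p = 0.601). The sign of [B] versus [P] depended on the single cells: the log2 fold change was -0.42 with all cells and 0.38 without these 2 cells.

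HLA-C was also lowest at [N] in both lines and had a smaller range. Unlike HLA-B, it was not highest at [P] or [S] in either line. Its sums were 29.3, 57.5, 95.2, 57.7 and 52.9 CPM at [N], [P], [B], [S] and [R] of the p53-/- line, and 17.2, 37.6, 62.9, 59.7 and 39.5 CPM in the p53+/+ line. Both lines had the highest sum in budding cells, and every irradiated stage was above [N] within its line, by 1.80 to 3.24 times in p53-/- cells and 2.19 to 3.66 times in p53+/+ cells.

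The lowest, median and highest HLA-C levels of single p53-/- cells were 8.82, 31.6 and 47.0 CPM at [N], 8.91, 68.3 and 110 CPM at [P], and 22.6, 104.3 and 142 CPM at [B]. They were 24.6, 60.3 and 100.8 CPM at [S] and 31.5, 39.7 and 121 CPM at [R]. For p53+/+ cells the values were 8.78, 13.1 and 26.3 CPM at [N], 21.6, 31.4 and 51.0 CPM at [P], and 4.85, 52.6 and 129 CPM at [B]. They were 18.5, 60.6 and 129 CPM at [S] and 17.8, 36.4 and 55.3 CPM at [R]. In [B], 7 of 8 p53-/- cells and 27 of 28 p53+/+ cells exceeded the highest [N] cell of their line, and at [R] 3 of 8 and 9 of 11 did, so that the stages overlapped only by single cells at [B] and more widely at [R].

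HLA-C had the smallest p-value of the members in [B] versus [N], with a log2 fold change of 1.64 (SE 0.35, p = 0.0008, adjusted p = 0.0639, edgeR). When the sums of a line were paired across stages, by a term for the cell line, the log2 fold change was 1.67 (SE 0.29) and the adjusted p was 0.0199, so that HLA-C rose in budding cells in this fit (3.4% of all genes were called in it). Summed entries in the blocked fit gave 1.43 for HLA-C (adjusted p = 0.0268) and 2.05 for HLA-B (adjusted p = 0.0385), with 4.02% of all genes called. The log2 fold change of HLA-C was 0.89 at [P] (SE 0.34, adjusted p = 0.371), 1.37 at [S] (SE 0.35, adjusted p = 0.212) and 0.84 at [R] (SE 0.34, adjusted p = 0.563), all against [N] and by edgeR without the block. All 7 HLA-C entries were above [N] at each of the 4 later stages, by 1.14 to 3.44 on the log2 scale at [B].

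B2M, the light chain shared by all class I molecules, differed between the lines in its course. Its sums were 663, 2365, 2657, 592 and 675 CPM at [N], [P], [B], [S] and [R] of the p53-/- line, against 971, 1219, 1766, 1436 and 769 CPM in the p53+/+ line. In p53-/- cells the [P] and [B] sums were 3.57 and 4.01 times that of [N] and the [S] sum was 0.89 times. In p53+/+ cells the [P], [B] and [S] sums were 1.26, 1.82 and 1.48 times that of [N]. That [N] sum was lowered by 1 cell at 266 CPM. The other 5 [N] p53+/+ cells summed to 1356 CPM, above the [P] sum. The medians per cell at [P], [B] and [S] were 1.12, 1.25 and 0.92 times that of [N] in this line. With 1 sum per line and stage, the difference between the lines in this course was not tested.

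The lowest, median and highest B2M levels of single p53-/- cells were 503, 664 and 854 CPM at [N], 845, 2179 and 4034 CPM at [P], 827, 1679 and 5192 CPM at [B], 394, 459 and 967 CPM at [S] and 439, 531 and 1577 CPM at [R]. In this line 10 of 11 [P] cells and 7 of 8 [B] cells exceeded the highest [N] cell, and 1 of 9 [S] cells and 1 of 8 [R] cells did. In p53+/+ cells the values were 266, 1129 and 1706 CPM at [N], 461, 1263 and 1583 CPM at [P], 185, 1411 and 5079 CPM at [B], 196, 1043 and 5254 CPM at [S] and 512, 717 and 1189 CPM at [R]. There 0 of 6 [P] cells, 10 of 28 [B] cells, 6 of 21 [S] cells and 0 of 11 [R] cells exceeded the highest [N] cell, so that the stages of this line overlapped throughout. The log2 fold change against [N] was 0.97 at [P] (SE 0.48, adjusted p = 0.458), 1.30 at [B] (SE 0.49, p = 0.023, adjusted p = 0.198), 0.36 at [S] and -0.35 at [R] by edgeR, and that of [S] versus [B] was -0.94 (p = 0.081, adjusted p = 1.00).

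**Figure D2:**
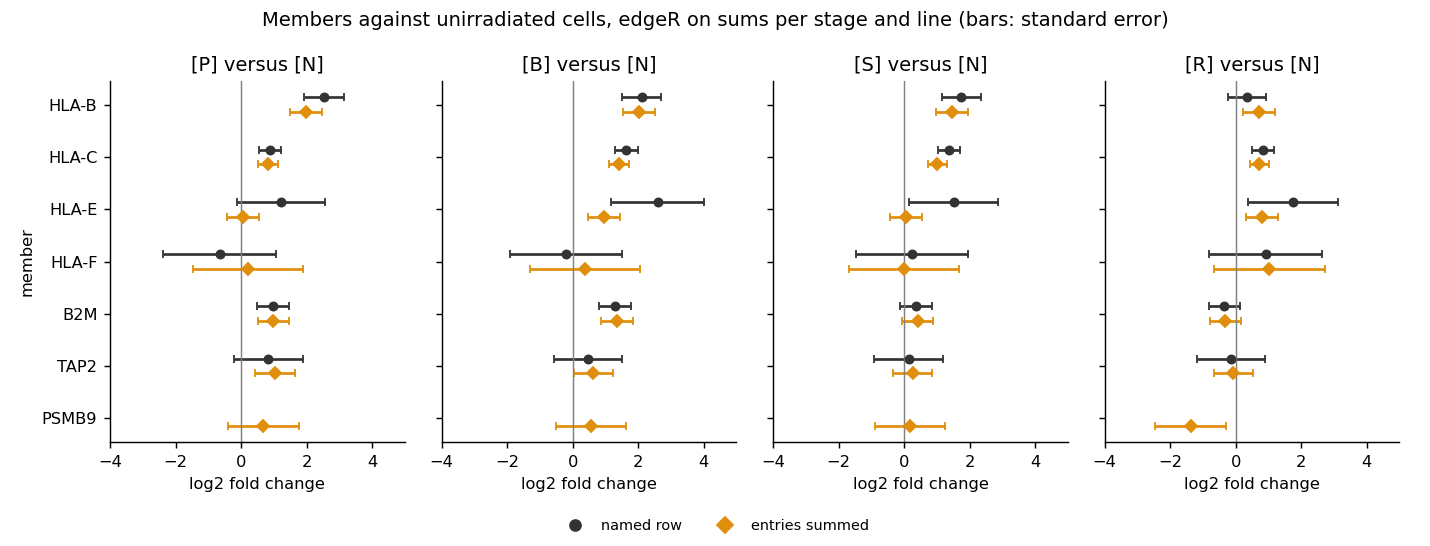
Log2 fold change of each member against [N] at [P], [B], [S] and [R] from edgeR on the 10 sums, with bars of 1 standard error; black circles are named rows and orange diamonds are summed entries. HLA-B (2.53, 2.12 and 1.75) and HLA-C (0.89, 1.64 and 1.37) lie right of 0 at [P], [B] and [S], and HLA-E moves toward 0 when its entries are summed.

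HLA-E, the non-classical ligand of NKG2A, had 9383 counts in its named row, and was detected in 99 cells. Its sums were 0.359, 0.387, 3.05, 0.298 and 0.387 CPM at [N], [P], [B], [S] and [R] of the p53-/- line, against 0.718, 2.38, 3.92, 2.61 and 3.63 CPM in the p53+/+ line. The [B] p53-/- sum came to 71.3% from 1 cell, the one of highest effector level, and was 1.09 CPM without it. Single p53-/- cells had a lowest, median and highest HLA-E level of 0, 0.283 and 0.888 CPM at [N], 0, 0.197 and 1.498 CPM at [P], 0, 0.352 and 10.99 CPM at [B], 0, 0.0406 and 1.66 CPM at [S] and 0, 0.346 and 1.22 CPM at [R]. In p53+/+ cells these values were 0.0388, 0.718 and 2.64 CPM at [N], 0.384, 1.86 and 5.46 CPM at [P], 0, 2.32 and 9.48 CPM at [B], 0, 1.86 and 7.21 CPM at [S] and 1.12, 3.20 and 6.03 CPM at [R]. The lines overlapped at every stage, and 12 of the 16 cells with no HLA-E count were p53-/-. The sum of HLA-E was below its p53+/+ counterpart in p53-/- cells at all 5 stages, and the log2 fold change of p53-/- versus p53+/+, with stage as a block, was -2.20 (SE 0.64, p = 0.0070, adjusted p = 0.161, edgeR). DESeq2 called this difference (adjusted p = 0.0021).

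The entries of HLA-E did not behave alike between the lines. The named row and the rows numbered 3 and 4 had log2 fold changes of -2.20, -2.26 and -2.45 (adjusted p = 0.161, 0.157 and 0.144), whereas the rows numbered 1, 2, 5 and 6 had 0.13, 0.24, 0.32 and 0.17. The mean CPM of the first set was 0.264 times that of the second over all p53-/- cells and 1.26 times over all p53+/+ cells. Within stages the ratio was 0.109, 0.190, 0.776, 0.168 and 0.085 at [N], [P], [B], [S] and [R] of the p53-/- line and 0.437, 1.48, 1.28, 1.46 and 1.09 in the p53+/+ line. Among cells with a mean of at least 20 counts per row, the ratio was under 0.5 in 31 of 33 p53-/- cells and in 8 of 56 p53+/+ cells. The rows are grouped here by their difference between the lines in these same cells. A ratio of the sets that differs between the lines follows from this grouping and is no separate evidence. It describes the cells of 1 line per genotype. The same division ran through [B] versus [N], with log2 fold changes of 2.54 to 2.59 for the first set and 0.33 to 0.37 for the second, and the summed entries gave 0.97. Between the lines the summed entries had a log2 fold change of -0.43 (SE 0.28, adjusted p = 0.567, edgeR), which is nearer 0 than that of the named row.

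**Figure D3:**
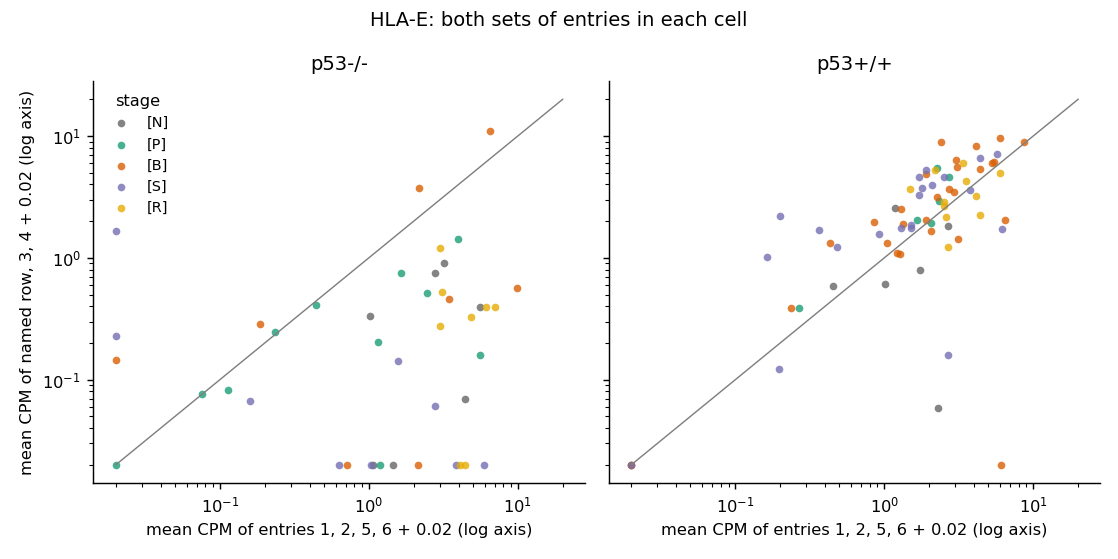
For each cell, the mean CPM of the HLA-E named row and rows 3 and 4 (vertical) against the mean CPM of rows 1, 2, 5 and 6 (horizontal), both with 0.02 added and on log axes, in p53-/- cells (left) and p53+/+ cells (right), coloured by stage; the grey line marks equal levels. Most p53-/- cells lie below the line, with a median ratio of 0.062 among 33 cells with enough counts, and the 56 such p53+/+ cells scatter around it with a median of 1.24. The rows are grouped by their difference between the lines in these same cells, so the panels differ by that choice.

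HLA-F and TAP2 had few counts. HLA-F was detected in 55 cells, with 884 counts in the named row and sums from 0.051 CPM ([P] p53+/+) to 0.620 CPM ([R] p53-/-). The [R] p53-/- value came from 2 of 8 cells (2.51 and 2.07 CPM), and the other 6 were at 0, so that no stage of HLA-F stood apart from another. TAP2, the transporter subunit with counts in its named row, was detected in 95 cells with 3281 counts. Its sums were 0.824, 1.23, 0.798, 0.796 and 0.683 CPM at [N], [P], [B], [S] and [R] of the p53-/- line, and 0.335, 1.05, 0.909, 0.462 and 0.485 CPM in the p53+/+ line. The log2 fold change of TAP2 against [N] was 0.84 at [P], 0.48 at [B], 0.13 at [S] and -0.14 at [R], and all 8 of its entries were above 0 at [P], [B] and [S], with adjusted p-values of 0.648 or more at [P].

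PSMB9, the immunoproteasome subunit also known as LMP2, was read from its summed entries. Its sums were 2.76, 15.9, 11.2, 1.12 and 1.83 CPM at [N], [P], [B], [S] and [R] of the p53-/- line and 6.99, 1.76, 4.94, 9.41 and 2.42 CPM in the p53+/+ line. The 15.9 CPM rested on 1 cell, which gave 69.2% of its counts at 138 CPM against a group median of 1.94 CPM. Likewise 1 cell gave 81.2% of the counts of the [B] p53-/- sum. The median per cell of the p53-/- line was 1.94 CPM at [P] and 2.08 CPM at [N], and that of the p53+/+ line was 0.961 CPM at [P] and 7.09 CPM at [N]. The log2 fold changes against [N] were 0.68 at [P], 0.57 at [B], 0.18 at [S] and -1.37 at [R], each with a standard error above 1.

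**Figure D4:**
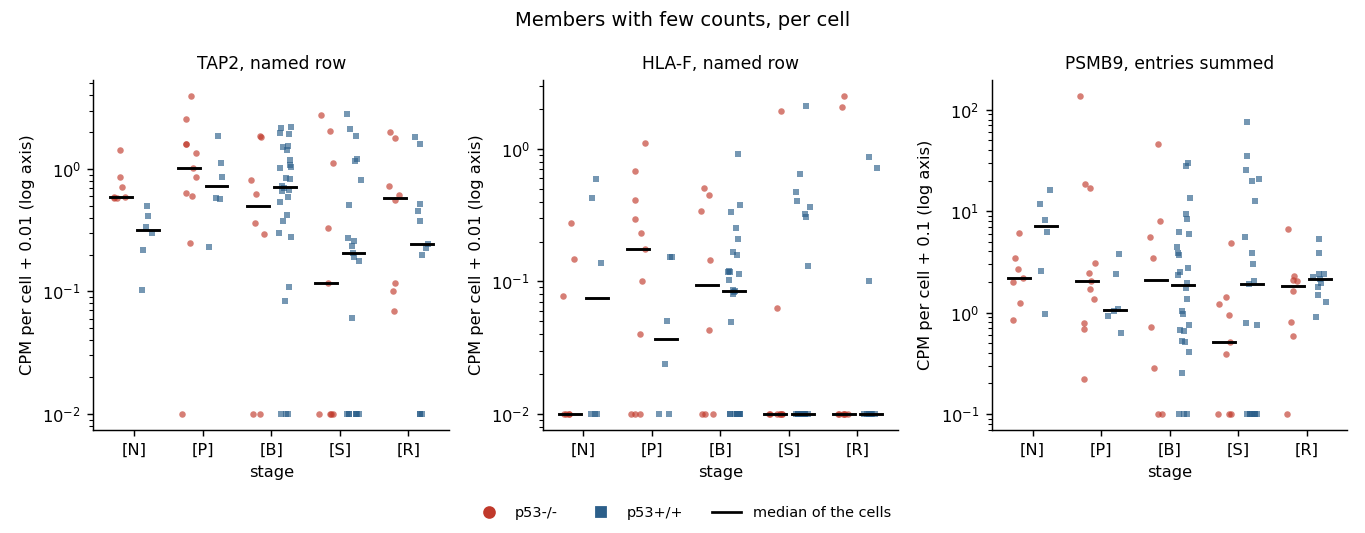
CPM per cell on log axes for the named rows of TAP2 and HLA-F (0.01 added) and the summed entries of PSMB9 (0.1 added); red circles are p53-/- cells, blue squares are p53+/+ cells, and black lines are medians of the cells. Cells at 0 lie at the bottom of each panel, and single cells carry PSMB9 up to 138 CPM in [P] p53-/- cells.

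Successive stages were also compared. In [B] versus [P] the log2 fold changes were 0.75 for HLA-C (p = 0.051, adjusted p = 0.953, edgeR), -0.42 for HLA-B and 0.33 for B2M. In [S] versus [B] they were -0.28 for HLA-C, -0.37 for HLA-B and -0.94 for B2M. In [R] versus [S], HLA-B had a log2 fold change of -1.39 (SE 0.58, p = 0.038, adjusted p = 0.300), HLA-C -0.53 and B2M -0.71. Between the lines, HLA-B had 0.59, HLA-C 0.36, B2M -0.20 and TAP2 0.41 on the log2 scale, p53-/- over p53+/+, none with an adjusted p under the threshold.

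Set beside all 19894 genes tested, the median log2 fold change of the 6 members was 0.93 in [P] versus [N], against 0.15 over all genes. It was 1.47 against 0.20 at [B], 0.87 against 0.15 at [S] and 0.59 against 0.024 at [R]. Of the members, 5 of 6 lay above 0 at [P] and at [B], 6 of 6 at [S] and 4 of 6 at [R], where 56.2%, 57.2%, 56% and 51.1% of all genes did.

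The labels name no batch, but the cell names open with a prefix, whose meaning is not given in the sources used here, and 10 of the 13 [N] cells carry one that no irradiated cell has. Prefix 1115 holds both [N] and [P] cells. Within it, the HLA-B sum was 33.0 CPM in 3 [P] p53-/- cells and 16.4 CPM in 2 [N] p53-/- cells, and 35.6 CPM in 6 [P] p53+/+ cells and 9.42 CPM in 1 [N] p53+/+ cell. HLA-C had 57.5 CPM in the [P] and 28.7 CPM in the [N] p53-/- cells, and 37.6 CPM in the [P] and 25.1 CPM in the [N] p53+/+ cells. B2M had 1243 CPM in the [P] and 711 CPM in the [N] p53-/- cells, and 1219 CPM in the [P] and 266 CPM in the [N] p53+/+ cells. The [P] cells were higher in each of these pairs, with too few cells for a test. For B2M the 1 [N] p53+/+ cell was the lowest of its group. The other 5 [N] p53+/+ cells, of prefix 0109, had 1356 CPM of B2M, above the 1219 CPM of [P]. Their HLA-B and HLA-C sums, 12.6 and 12.9 CPM, were below those of [P]. The [P] p53-/- cells of 2 other prefixes had HLA-B sums of 98.1 CPM (1118, 4 cells) and 275 CPM (1206, 4 cells). The 4 cells of prefix 1206 had 16.9, 19.5, 287 and 611 CPM. The cell at 611 CPM is the one that supplied 63.3% of the HLA-B counts of the whole [P] p53-/- sum. A difference between these prefixes thus cannot be told apart from that of single cells. No [B], [S] or [R] cell shares a prefix with an [N] cell, and for these stages the prefix and the stage cannot be told apart.

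The other genes of the pathway were grouped by role. For each list below, the share of all genes above 0 against [N] was 56.2% at [P], 57.2% at [B], 56% at [S] and 51.1% at [R]. The share called by edgeR was 0.0201%, 0.658%, 0.0704% and 0% in the same order. Of the 7 genes of peptide loading and trimming (TAPBP, TAPBPL, CALR, CANX, PDIA3, ERAP1 and ERAP2), all tested, 4 lay above 0 at [P], [B] and [S] against [N] and 6 at [R]. None was called by edgeR. PDIA3, an oxidoreductase of the loading complex, had a log2 fold change of -1.15 at [S] (SE 0.29, p = 0.0027, adjusted p = 0.212), CANX, a lectin chaperone, had -0.75 at [S], and TAPBP (tapasin), which bridges TAP and the heavy chain, had 1.27 at [R] (SE 0.39, adjusted p = 0.563). CALR (calreticulin) had 0.60 between the lines, p53-/- over p53+/+ (SE 0.15, adjusted p = 0.119).

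Of 6 proteasome partners, 1 lay above 0 at [P], 2 at [B], 3 at [S] and 0 at [R]. PSMB10, the immunoproteasome subunit encoded away from the MHC on chromosome 16, was measured well in its named row. Its sums were 55.5, 74.9, 78.5, 57.1 and 45.6 CPM at [N], [P], [B], [S] and [R] of the p53-/- line, against 114.5, 97.9, 166, 178 and 78.8 CPM in the p53+/+ line. It was lower in p53-/- cells at all 5 stages, with a log2 fold change of -1.10 (SE 0.21, p = 0.00049, adjusted p = 0.0674). PSME1, a subunit of the PA28 activator, had -0.62 between the lines, and the constitutive subunits PSMB5 and PSMB6 had -0.41 between the lines and -0.84 in [R] versus [N]. None of the 6 was called by edgeR in any comparison.

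The 11 transcriptional regulators lay mostly above 0, 9 of 11 at [P] and at [B], 8 at [S] and 7 at [R], with medians of 0.52, 0.50, 0.43 and 0.29, and none was called by edgeR. IRF9, a part of the complex that answers type I interferon, had a log2 fold change of 1.66 at [B] (SE 0.59, adjusted p = 0.181). NLRC5, the class I transactivator, had 1.53 at [S] (SE 0.61, adjusted p = 0.331), IRF1 had 1.00 at [B], RELA, a subunit of NF-kB, had 0.98 at [S], and RFX5 had -0.57 between the lines. Among the 7 interferon receptor and kinase genes only 1 lay above 0 at [P], at [B] and at [S]. IFNGR1 had -0.56 between the lines (adjusted p = 0.216), and IFNGR2 had 0.28. IFNAR2 and JAK1 had -0.56 and -0.40 at [B]. None was called by edgeR.

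Of 9 other class I and class I-like genes, 8 were tested and 4 lay above 0 at [P], 5 at [B], 5 at [S] and 7 at [R], with none called by edgeR; the blocked fit called 1 higher at [B], beside 3.4% of all genes. ULBP2, a stress ligand of the NKG2D receptor, had a log2 fold change of 1.501 at [P] (SE 0.40, p = 0.0035, adjusted p = 0.286), MR1 had 1.15 at [B], and HFE had -1.56 at [S]. Class II genes had low counts: 4 of 8 were tested, HLA-DMA and HLA-DPA1 were at 0 in all cells, and the summed level of the list ranged from 0.219 CPM ([N] p53+/+) to 19.1 CPM ([R] p53-/-). CIITA, the class II transactivator, had 2.93 at [R] (SE 1.67), HLA-DRB1 2.67 (SE 2.08) and CD74 -3.30 at [S] (SE 2.00). HLA-DMB had -3.41 between the lines (SE 2.11).

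The interferon effectors, a list of 14 interferon-stimulated genes with antiviral roles outside antigen presentation, had positive values at the same stages. All 13 tested lay above 0 at [P], [B] and [S] against [N], with medians of 3.66, 4.45 and 4.59 on the log2 scale, and 12 of 13 did at [R], with a median of 1.38. By edgeR 0 were called. An unadjusted p under 0.05 by edgeR was found for 11 at [P] (11.9% of all genes), 11 at [B] (18.5%), 10 at [S] (13.3%) and 0 at [R] (8.6%). DESeq2 on the sums called 7 at [P] (4.02% of all genes), 9 at [B] (10.7%), 7 at [S] (4.83%) and 1 at [R] (2.02%). The blocked fit, in which the line is a term, called 2 of the 13 higher at [B] and 0 at [P], [S] and [R], beside 3.4% of all genes at [B]. ISG15, a ubiquitin-like modifier, had a log2 fold change of 4.45 at [B] (SE 0.92, adjusted p = 0.0598). OAS3, a sensor of double-stranded RNA, had 2.05 at [P] (SE 0.44, adjusted p = 0.284). IFI6 had 4.87 at [S] (SE 1.22) and OASL 6.99 at [B] (SE 1.83, adjusted p = 0.106). The summed level of the list ranged from 208 CPM in [N] p53-/- cells to 9103 CPM in [B] p53-/- cells. Single cells weighed heavily on the latter: 1 [B] p53-/- cell had 27498 CPM and another had 16201 CPM. The ISG15 sum of this group was 7167 CPM with the cell of highest effector level and 3862 CPM without it. The median of its other cells was 1951 CPM.

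Across all cells the members varied with these effectors to unequal extents. The Pearson correlation of log2(CPM + 1) with the mean of the 14 effectors was 0.63 for B2M, 0.63 for HLA-B, 0.44 for HLA-C, 0.28 for TAP2, 0.27 for HLA-E and 0.07 for HLA-F. After the mean of each stage and line was subtracted, it was 0.53 for B2M, 0.47 for HLA-B and 0.30 for HLA-C. Among the members, HLA-B correlated with HLA-C at 0.59 and with B2M at 0.57, or 0.47 and 0.45 within groups. These are descriptions over single cells, which share stages, lines and sequencing depth. The correlation of each member with the total count of a cell was between -0.08 and 0.12 over all cells. Within groups it was between -0.11 (HLA-B) and 0.23 (B2M).

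**Figure D5:**
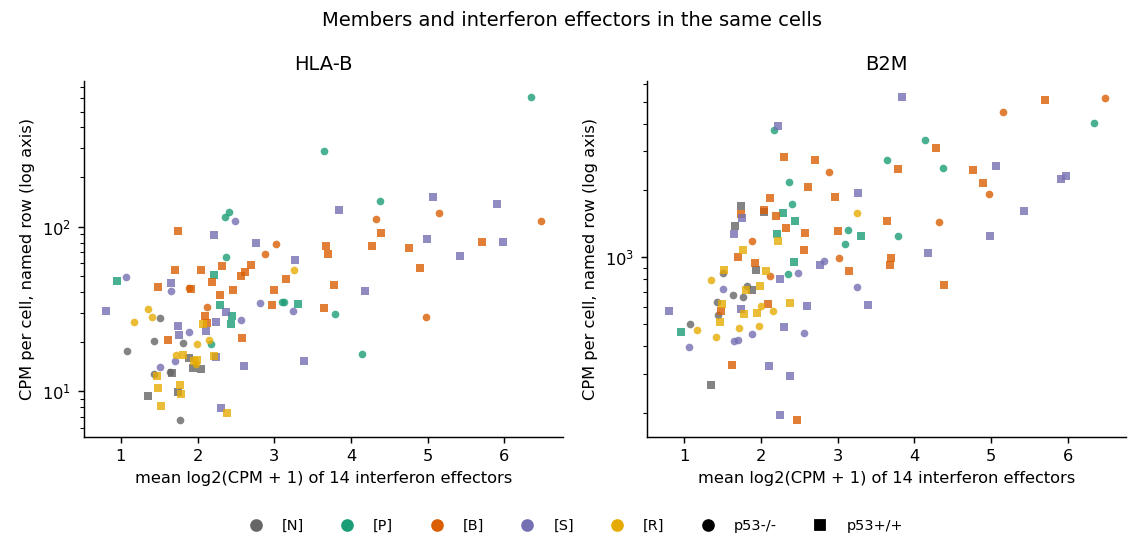
HLA-B (left) and B2M (right) CPM per cell on a log axis against the mean log2(CPM + 1) of 14 interferon effectors in the same cell; circles are p53-/- cells, squares are p53+/+ cells, and colours are stages. The Pearson correlation over all cells is 0.63 in both panels, and the [N] cells lie between 1.08 and 2.04 on the horizontal axis.

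The genes outside all lists whose levels were most like the mean of the 6 detected members over all cells were DDX58, SAMD9, GBAP1_1, C19orf66, TNIP1, DDX60, TRNE, OPTN, C1RL and CD59, among 13771 genes with a count in at least 58 cells. Their Pearson correlations ran from 0.66 for DDX58, which encodes the viral RNA sensor RIG-I, to 0.55 for CD59, an inhibitor of complement. TNIP1 had the closest correlation with HLA-B alone among these 10, at 0.71, and CD59 the closest with B2M, at 0.61. Of the 10 cells with the highest mean of the members, 3 were [P] p53-/-, 2 were [B] p53-/-, 2 were [B] p53+/+ and 3 were [S] p53+/+ cells. The first of them, a [B] p53-/- cell, had 5192 CPM of B2M, 109 CPM of HLA-B, 88.8 CPM of HLA-C and 10.99 CPM of HLA-E, and 27498 CPM in the 14 effectors.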

How the data were processed

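Single-cell SMART RNA-seq libraries of HCT116 cells were analysed from the gene count table deposited by the authors, which holds 1 column of whole-number counts per cell, not normalized. The methods of the study and the submitters' processing notes name fastp, HISAT2 2.0, StringTie and the GRCh38 genome; the tool that wrote the counts is not given in the sources used here, and the notes also list RSEM, Bowtie2, DESeq2 and mm10. Groups came from the sample labels. The table has 43386 rows, of which 9490 hold no count and 3837 have a name ending in an added number; 0 columns of per-sample values were left unused. Total counts were 4056329 to 100173192 per cell, and counts without molecular identifiers are not independent molecules.

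Counts were summed into 10 sums by stage and line. Rows with at least 10 counts by the edgeR filter and a count in at least 12 cells were tested (19894) with edgeR 4.0.16 (TMM, robust quasi-likelihood F test, R 4.3.3), with stages as groups, and with stage as a block for the comparison of the lines. The biological coefficient of variation was 0.751. The procedure was tested on simulated data. Levels are CPM of the summed counts or of a single cell. The members and the gene lists were chosen with earlier results of these data known. All members are named; from each other list up to 4 genes with the smallest p against [N] or between the lines are named, with PSMB10, NLRC5 and IRF1 in any case. Some genes that this rule names, and the check of the targeted gene, are not reported here. The genes most like the members were ranked by Pearson correlation of log2(CPM + 1) with the mean of the members, each standardized over cells.

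Alternatives were DESeq2 1.42.0 on the sums and on single cells, library size scaling, other count filters, thinning to 15435056 counts per cell (12 cells left out), 1 sum per name prefix, the cell line as a block, and each sum left out. Summing the entries of a name and leaving out the 2 cells of highest effector level were chosen after seeing the data. The stages are paired by the cell line, as both lines were sampled at each stage: the line differences of 2 stages correlated across genes at 0.074 to 0.216. Sequences were from RefSeq (GRCh38.p14).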

Additional observations from a re-analysis of the deposited data

Results flagged for a closer look

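Single cells lay far from the rest of their group on the log2(CPM + 1) scale in 5 of 36 combinations of member and group tested. For normally distributed values about 1 in 20 would by chance. Levels at or near 0, as for HLA-E, HLA-F and TAP2, are not distributed so, and that rate is no guide for them. The combinations share cells and are not independent. Larger groups, such as the 11 [P] p53-/- cells that include the HLA-B cell at 611 CPM, were not tested. The value given is the gap to the nearest cell over the range of the group. The lowest HLA-C cell of [N] p53-/- had 8.82 CPM and the next 25.7 CPM (0.631, critical value 0.568). The highest TAP2 cell of the same group had 1.42 CPM and the next 0.849 CPM (0.618, critical value 0.568). In [S] p53-/- cells the highest HLA-E cell had 1.66 CPM and the next 0.207 CPM (0.808, critical value 0.493), and the highest HLA-F cell had 1.93 CPM and the next 0.0535 CPM (0.952, critical value 0.493). The highest B2M cell of [R] p53-/- had 1577 CPM and the next 793 CPM (0.537, critical value 0.526).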

How the results depend on the processing

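No member was called in the 8 comparisons of the main edgeR fit, and an alternative can thus only add calls. Of the log2 fold changes of members recomputed under the alternatives, 905 kept their direction and side of the threshold, 36 passed it, 18 of them by DESeq2 with cells as replicates, and 61 changed sign; the cause was not tested. Single cells of a line share a culture and are not replicates of a stage, so calls by DESeq2 on cells are no evidence of a difference between stages or lines. The most frequent change of sign was that of HLA-F, with 884 counts. Taking the cell line as a block called HLA-C in [B] versus [N] and changed no other call of a member. Low counts limit HLA-F and TAP2, which had no count in 60 and 20 cells.

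With DESeq2 on the sums the share of genes called was 4.02% for [P] versus [N], 10.7% for [B] versus [N], 4.83% for [S] versus [N], 2.02% for [R] versus [N], 0.643% for [B] versus [P], 0.256% for [S] versus [B], 7% for [R] versus [S] and 8.22% for the lines, and the number of members called was 1 for [P] versus [N], 2 for [B] versus [N], 1 for [S] versus [N] and 1 for the lines. Without a filter on low counts the share of genes called was 1.2% for [P] versus [N], 3.76% for [B] versus [N], 1.55% for [S] versus [N], 0.549% for [R] versus [N], 0.549% for [B] versus [P], 0.292% for [S] versus [B], 2.07% for [R] versus [S] and 1.22% for the lines, and the number of members called was 1 for [P] versus [N], 3 for [B] versus [N], 2 for [S] versus [N] and 1 for [R] versus [S]. With 1 sum per name prefix the share of genes called was 0% for [P] versus [N], 0% for [S] versus [N], 0.777% for [S] versus [B], 0% for [R] versus [S] and 6.47% for the lines, and the number of members called was 1 for [B] versus [N] and 1 for the lines. The share for [B] versus [N] was of similar size to the 0.658% of the main fit. The sign turned here for HLA-F in [B] versus [P] (-0.14), B2M in [B] versus [P] (-0.13), HLA-E in [R] versus [S] (-0.071), HLA-B in p53-/- versus p53+/+ (-0.097) and HLA-F in p53-/- versus p53+/+ (-0.055). Without the 2 cells highest in interferon effectors the share of genes called was 0% for [P] versus [N], 0.258% for [B] versus [N], 0% for [R] versus [S] and 0.581% for the lines. The sign turned here for HLA-B in [B] versus [P] (0.38). With DESeq2 and cells as replicates the share of genes called was 5.68% for [P] versus [N], 14.1% for [B] versus [N], 10.2% for [S] versus [N], 2.03% for [R] versus [N], 3.54% for [B] versus [P], 0.392% for [S] versus [B], 16.5% for [R] versus [S] and 11.5% for the lines, and the number of members called was 3 for [P] versus [N], 4 for [B] versus [N], 3 for [S] versus [N], 1 for [R] versus [N], 1 for [B] versus [P], 3 for [R] versus [S] and 3 for the lines. Log2 fold changes that turned were 0.91 for HLA-F in [P] versus [N], 0.32 for HLA-F in [B] versus [N], 0.16 for TAP2 in [R] versus [N], -0.59 for HLA-F in [B] versus [P], -0.27 for B2M in [B] versus [P] and -0.29 for HLA-E in [R] versus [S]. With summed entries and the cell line as a block the share of genes called was 4.02% for [B] versus [N], 0.249% for [S] versus [N], 0.143% for [B] versus [P] and 0.472% for [R] versus [S], and the number of members called was 2 for [B] versus [N]. Log2 fold changes that turned were -0.049 for HLA-E in [P] versus [N], 0.17 for HLA-F in [B] versus [N], -0.063 for HLA-E in [S] versus [N], 0.11 for HLA-B in [B] versus [P] and -0.088 for HLA-F in [S] versus [B]. With summed entries the share of genes called was 1.1% for [B] versus [N], 0.122% for [R] versus [S] and 0.736% for the lines. Log2 fold changes that turned were 0.22 for HLA-F in [P] versus [N], 0.38 for HLA-F in [B] versus [N], -0.0059 for HLA-F in [S] versus [N], 0.047 for HLA-B in [B] versus [P] and -0.39 for HLA-F in [S] versus [B]. With the cell line as a block, which pairs the stages, the share of genes called was 3.4% for [B] versus [N], 0.156% for [S] versus [N], 0.0302% for [B] versus [P] and 0.382% for [R] versus [S], and the number of members called was 1 for [B] versus [N]. With library size as the only scaling the share of genes called was 0.362% for [B] versus [N], 0% for [R] versus [S] and 0.136% for the lines. Log2 fold changes that turned were 0.0087 for TAP2 in [R] versus [N]. With a minimum count of 100 the share of genes called was 1.23% for [B] versus [N], 0.141% for [R] versus [S] and 0.797% for the lines, and the number of members called was 1 for [B] versus [N]. With cells thinned to 1 depth the share of genes called was 0.425% for [B] versus [N], 0.042% for [S] versus [N], 0.00525% for [B] versus [P], 0.00525% for [R] versus [S] and 1.13% for the lines. Log2 fold changes that turned were 0.26 for HLA-F in [B] versus [N], -0.18 for HLA-F in [S] versus [N], 0.35 for TAP2 in [R] versus [N], -0.43 for HLA-F in [S] versus [B] and -0.061 for HLA-F in p53-/- versus p53+/+. Without the stage as a block the share of genes called was 0.00503% for the lines. The sign turned here for B2M in p53-/- versus p53+/+ (0.013).

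With each of the 10 sums left out in turn, the share of genes called ranged from 0% to 0.015% for [P] versus [N], 0% to 1.24% for [B] versus [N], 0% to 0.0602% for [S] versus [N], 0% to 0% for [R] versus [N], 0% to 0% for [B] versus [P], 0% to 0% for [S] versus [B], 0% to 0% for [R] versus [S] and 0.03% to 0.365% for the lines, and no member was called. In [P] versus [N], log2 fold changes crossed 0, from -0.65 to 2.04 for HLA-E and -1.83 to 0.81 for HLA-F. In [B] versus [N], log2 fold changes crossed 0, from -0.90 to 1.29 for HLA-F. In [S] versus [N], log2 fold changes crossed 0, from -0.57 to 0.91 for B2M, -0.96 to 2.37 for HLA-E, -1.09 to 1.71 for HLA-F and -0.29 to 0.87 for TAP2. In [R] versus [N], log2 fold changes crossed 0, from -0.62 to 0.072 for B2M, -0.22 to 0.76 for HLA-B, -0.66 to 2.60 for HLA-E, -0.76 to 2.39 for HLA-F and -0.55 to 0.60 for TAP2. In [B] versus [P], log2 fold changes crossed 0, from -0.063 to 0.88 for B2M, -1.09 to 0.88 for HLA-B and -0.20 to 1.68 for HLA-F. In [S] versus [B], log2 fold changes crossed 0, from -0.90 to 1.09 for HLA-F. In [R] versus [S], log2 fold changes crossed 0, from -1.26 to 0.22 for B2M, -2.18 to 2.71 for HLA-E, -0.99 to 1.99 for HLA-F and -0.52 to 0.067 for TAP2. In p53-/- versus p53+/+, log2 fold changes crossed 0, from -0.50 to 0.10 for B2M and -0.40 to 0.88 for HLA-F.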
